A study of Rattus norvegicus with 18 samples.

Results

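The comparison described here is the growth of the kidney between 3 and 6 weeks of age in WKY, the normotensive rat strain of the study. It sets the 3 arrays labelled WKY at 6 weeks against the 3 arrays labelled WKY at 3 weeks. These 6 arrays were chosen by strain and age alone, out of 18 arrays in the series. The study also holds spontaneously hypertensive rats (SHR) and the stroke-prone strain SHRSP, each at 3 and at 6 weeks, and asked how kidney gene expression differs between hypertensive and normotensive animals. All animals were untreated, each of the 6 groups had 3 biological replicates, and total kidney RNA was read in a single color on rat oligonucleotide arrays. Sex was not given in the labels, and per the study's methods the animals of both ages were bought in and kept for different times before use.

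In rats, new nephrons stop forming soon after birth, and the kidney then grows as its tubules lengthen and mature. The weeks studied run from weaning, when milk gives way to solid food, toward puberty, when sex steroids and the sex-dependent pattern of growth hormone begin to act. Many transporters and enzymes of the rat proximal tubule are known to differ between the sexes and to follow these hormones.

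Levels are log2 normalized signals, that is, the log2 of a probe's signal over that array's own 75th percentile, taken among spots well above background. The change with age is the mean at 6 weeks minus the mean at 3 weeks on this scale, from 3 arrays an age, with its standard error (SE) and the adjusted p of limma. The kidney markers Umod, Slc12a1, Aqp2, Slc34a1, Lrp2 and Cdh16 were well above background on all 6 WKY arrays. Umod, the most abundant protein of normal urine, read 6.60, 6.59 and 6.73 at 3 weeks and 6.58, 6.69 and 6.69 at 6 weeks. Its ages overlapped. Of 42877 spots, 30865 to 32167 were well above background on a WKY array, and replicates correlated across probes at 0.9955 to 0.9976 at 3 weeks and 0.9977 to 0.9983 at 6 weeks.

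All 3 WKY arrays at 3 weeks lay on 1 slide scanned on 1 day, and all 3 at 6 weeks on another slide scanned on another day, so that age, slide and scan day cannot be told apart from the WKY arrays alone. The slide of the younger WKY kidneys also held SHR replicate 1 at 3 weeks, and that of the older ones held SHRSP replicate 3 at 3 weeks. Set against the other 3-week arrays of their strains, these 2 arrays allowed a fit with slide as a fixed block, called the slide block from here on. The median SE of a probe was 0.259 with the slide block and 0.116 without it.

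Between 3 and 6 weeks the WKY kidney changed many transcripts by small amounts and few by large ones. Of 20399 probes tested, 4073 (20.0%) were higher and 2492 (12.2%) lower at 6 weeks at an adjusted p under 0.05, and 89.0% of the called probes changed by less than 2-fold. The median log2 change was 0.48 among probes that rose and -0.43 among those that fell, against 0.065 over all probes tested. That median over all probes was -0.070 with the slide block and nearer 0 under the 5 other scalings. The count of 6565 called probes was 4309 without WKY replicate 2 at 3 weeks and 4184 without WKY replicate 3 at 6 weeks.

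The share of called probes that were higher depended on the scaling. It was 62.0% here, 50% with the 75th percentile of all spots, 53.3% with that of probes well above background on all 18 arrays, 47.4% with the median of those probes, 46.0% with quantile normalization and 48.0% with normexp background correction and quantile normalization. The counts higher and lower under these 5 scalings were 3632 and 3638, 3927 and 3441, 3490 and 3871, 3478 and 4086, and 3772 and 4090. With the slide block 192 probes were called, 138 higher and 54 lower, and 86.4% of the 6565 probes had the same sign. With scan day as a block 406 were called, 360 higher and 46 lower, and 96.7% had the same sign.

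Counted by gene, with the brightest probe standing for each, 2410 of 12517 genes (19.3%) were higher and 1757 (14.0%) lower, and the median change was 0.044. The counts of each gene list given below stand against these shares of all genes. Beyond 4-fold, 92 probes (0.451%) were higher and 34 (0.167%) lower, standing for 60 and 31 named genes. Of the 92, 39 had no 3-week array well above background, and of the 34, 5 had no 6-week array, so that these folds rest on signals at background. With normexp and quantile normalization 26 were higher and 16 lower, and among probes well above background on all 6 WKY arrays 45 and 18. Of the 92, 50 were also called with the slide block, and of the 34, 2 were. In tissue of many cell types, fewer cells of a type and less RNA per cell cannot be told apart.

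The 12 named genes with the largest fitted rise were taken from those well above background on at least 1 WKY array of each age. They were chosen for a lack of overlap, and no function shared by them was tested. Cyp4a2, a fatty acid hydroxylase of the proximal tubule, read -3.43, -2.17 and -2.75 at 3 weeks and 5.95, 5.69 and 5.92 at 6 weeks. All older kidneys stood far above all younger ones, and the rise was 397-fold, or 8.63 (SE 0.21, adjusted p = 4.5e-12). Slco1a1, an organic anion transporter of the luminal membrane of the proximal tubule, read -4.46, -4.36 and -4.54 at 3 weeks and 1.28, 0.65 and 1.14 at 6 weeks. Its groups were tight and far apart, with a rise of 44.6-fold, or 5.48 (SE 0.13, adjusted p = 4.5e-12). Both were called with the slide block, at 8.42 (adjusted p = 4.8e-05) and 5.30 (adjusted p = 3.9e-05).

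Dhrs7, a short-chain dehydrogenase, was read by a pair of probes that disagreed in size. The probe standing for the gene read -6.75, -6.15 and -7.57 at 3 weeks and 1.51, 0.68 and 1.49 at 6 weeks. Its groups did not overlap, and the rise was 8.05 (SE 0.30, adjusted p = 3.4e-10) on the log2 scale. On 1 younger array this probe was not well above background, and with dim signals raised to the dimmest spot well above background on their array the rise was 7.89, or 238-fold. Its other probe read -2.17, -2.54 and -2.36 at 3 weeks and -2.10, -2.09 and -1.99 at 6 weeks. These groups did not overlap either but lay close together, with a change of 0.30 (SE 0.079, adjusted p = 0.012). On the rn4 assembly, the first lies at chr6:95006077-95006136 and the other at chr6:95049795-95049854, both on the minus strand.

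Several secreted proteins rose as well. Tff3, a trefoil peptide of mucous epithelia, read 1.43, 1.75 and 1.53 at 3 weeks and 5.40, 4.87 and 5.27 at 6 weeks. Every older kidney was above every younger one, with a change of 3.61 (SE 0.12, adjusted p = 9.0e-11). Rarres1, a protein first known from cells treated with a retinoid, read -2.92, -2.76 and -2.82 at 3 weeks and 0.14, -0.16 and 0.11 at 6 weeks. Its ages were apart by more than their spread, and the change was 2.86 (SE 0.089, adjusted p = 5.7e-11). Gc, the plasma carrier of vitamin D, read -5.88, -5.65 and -5.45 at 3 weeks and -1.04, -2.84 and -1.48 at 6 weeks. Its older arrays spread more widely than the younger ones but did not reach them, and the change was 3.88 (SE 0.32, adjusted p = 1.9e-06). Spink1l, named for its likeness to a secreted trypsin inhibitor, read 0.38, 0.33 and 0.56 at 3 weeks and 3.76, 3.67 and 3.84 at 6 weeks. With no overlap, its change was 3.33 (SE 0.10, adjusted p = 3.9e-11). Tff3, Rarres1 and Spink1l were also called with the slide block, and Gc had 3.37 (adjusted p = 0.079).

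The remaining large rises were in further enzymes, a channel and a matrix protein. Akr1c12l1, an aldo-keto reductase, read -3.86, -3.55 and -3.84 at 3 weeks and 0.46, 0.28 and 0.54 at 6 weeks. Its groups stood far apart, with a change of 4.18 (SE 0.095, adjusted p = 4.5e-12). Gsta1, a transferase that couples foreign compounds to glutathione, read 1.38, 1.31 and 1.40 at 3 weeks and 4.45, 4.004 and 4.33 at 6 weeks. Its ages did not overlap, and the change was 2.90 (SE 0.10, adjusted p = 1.1e-10). Cyp2c11, known as the steroid hydroxylase typical of adult male rat liver, read -5.05, -5.30 and -5.39 at 3 weeks and -0.81, -2.89 and -1.53 at 6 weeks. The older arrays were widely spread, with replicate 2 the lowest, and all stood above the younger ones, for a change of 3.50 (SE 0.45, adjusted p = 1.1e-04). Cftr, an epithelial chloride channel, read -6.25, -6.004 and -5.80 at 3 weeks and -2.71, -2.74 and -2.63 at 6 weeks. The groups were apart, and the change was 3.32 (SE 0.30, adjusted p = 3.9e-06), while its other probe was well above background on no WKY array. Ccn6, a secreted matrix protein with 1 of 3 younger arrays well above background, read -8.48, -6.32 and -7.21 at 3 weeks and -3.23, -3.13 and -2.83 at 6 weeks. Its ages were apart, with a change of 4.28 (SE 0.40, adjusted p = 7.0e-06), or 3.78 with dim signals raised in the same way, with its other probe, too, well above background on no WKY array. With the slide block Akr1c12l1 and Gsta1 were called, and Cyp2c11 had 2.42 (adjusted p = 0.25), Cftr 2.62 (adjusted p = 0.11) and Ccn6 4.32 (adjusted p = 0.075). With normexp and quantile normalization Cftr had 1.85 and Ccn6 1.89.

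**Figure D1:**
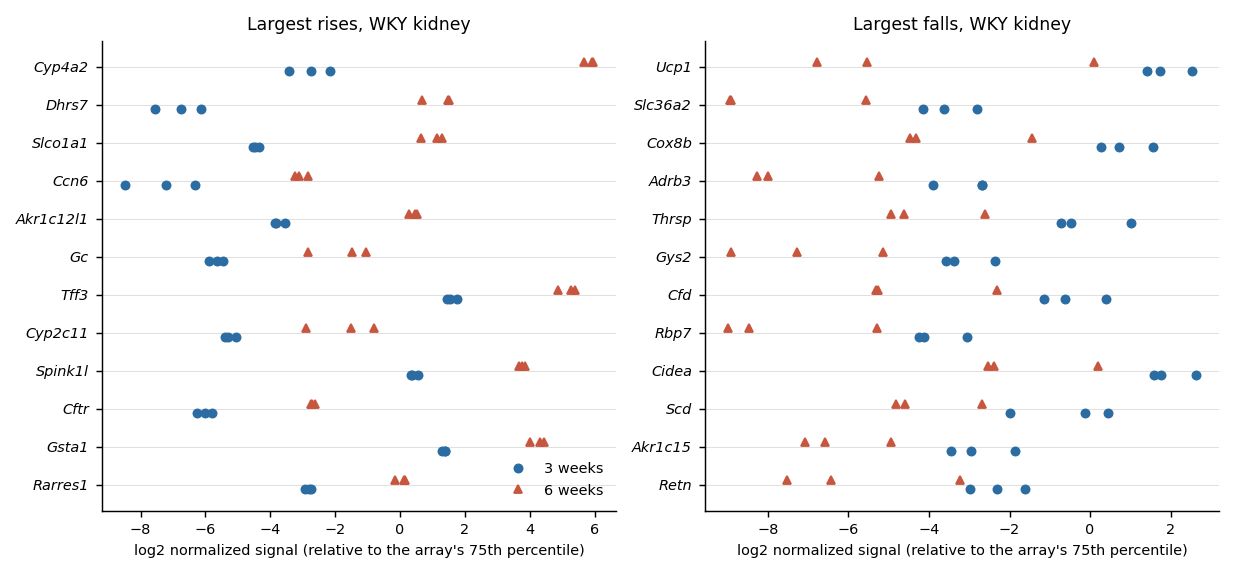
Log2 normalized signal (horizontal axis) on each of the 6 WKY arrays for the 12 genes with the largest fitted rise (left) and the 12 with the largest fitted fall (right) among called genes well above background on at least 1 array of each age and without overlap between the ages, circles for 3 weeks and triangles for 6 weeks. The lack of overlap follows from this choice, and in each of the 12 falls 1 older array, replicate 2, lies nearest to the younger ones.

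For genes where none of the 3 arrays of an age was well above background, the change is given as a bound. The level of each dim array was raised to at least that of the dimmest spot well above background on that array, and the fold was taken against the mean of these levels. Sds, which breaks down serine, read -7.92, -6.98 and -7.16 at 3 weeks and -3.45, -3.56 and -3.52 at 6 weeks. All older arrays stood well above the younger ones, and it rose at least 11.5-fold. Ugt2b7, a glucuronosyltransferase, rose at least 8.73-fold, Iqch at least 8.64-fold, Tm4sf20 at least 6.45-fold and Mpped1 at least 4.85-fold. These 5 genes, too, were chosen for a lack of overlap, and any call of them uses signals at background. Under the slide block Mpped1 was not called (adjusted p = 0.076). The other probe of Mpped1, also well above background on no younger array, was not called (adjusted p = 0.060). The bounds hold for the scaling and background correction used here. With normexp and quantile normalization the log2 changes were 1.88 for Sds, 1.53 for Ugt2b7, 1.27 for Iqch, 1.30 for Tm4sf20 and 0.84 for Mpped1. The normexp offset of 50 draws changes of such dim probes toward 0.

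In the other direction Prrx2, a homeobox factor of mesenchyme, read -5.16, -4.96 and -5.35 at 3 weeks and -7.32, -7.04 and -7.31 at 6 weeks. The groups were apart, and it fell at least 3.69-fold. Bounds of the same kind were at least 3.26-fold for Calr4, 2.79-fold for Apoc1, an apolipoprotein, 2.74-fold for Smpd3, a neutral sphingomyelinase, and 2.72-fold for Stc2, a stanniocalcin. Under the slide block none of these was called, with an adjusted p of 0.36 for Prrx2, 0.66 for Calr4, 0.30 for Apoc1, 0.86 for Smpd3 and 0.40 for Stc2. The log2 changes with normexp and quantile normalization were -0.80, -0.82, -0.55, -0.67 and -0.70 for the same genes. The other probe of Smpd3 was well above background on 1 WKY array.

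The 12 named genes with the largest fitted fall, under the same limit, included several best known from brown and white fat. Ucp1, the uncoupling protein by which brown fat makes heat, read 2.53, 1.41 and 1.74 at 3 weeks and -5.54, 0.10 and -6.79 at 6 weeks. No older array reached a younger one, but replicate 2 at 6 weeks stood far above both other older arrays. The fall was 62.5-fold, or -5.97 (SE 1.33, adjusted p = 0.0044), and leaving out 1 array at a time gave -8.05 to -4.61. Ucp1 was not called when only the 6 WKY arrays were fitted. The 60-base array probe of Ucp1 is shown because the largest fall among the named genes rests on it. It lies at chr19:26527687-26527746 on the minus strand of rn4.
Ucp1: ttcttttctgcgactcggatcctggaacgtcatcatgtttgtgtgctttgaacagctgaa

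Cidea, a lipid droplet protein of brown fat, read 2.63, 1.60 and 1.75 at 3 weeks and -2.53, 0.20 and -2.38 at 6 weeks. Cox8b, a cytochrome oxidase subunit of muscle and brown fat, read 1.56, 0.28 and 0.71 at 3 weeks and -4.32, -1.44 and -4.46 at 6 weeks. Cfd, the protease adipsin, read 0.40, -1.14 and -0.61 at 3 weeks and -5.32, -2.32 and -5.26 at 6 weeks. In these 3 genes the ages were apart, and replicate 2 at 6 weeks lay between the younger arrays and the other older ones. Cidea fell by 3.56 (SE 0.64, adjusted p = 0.0012), Cox8b fell by 4.26 (SE 0.71, adjusted p = 7.2e-04) and Cfd fell by 3.85 (SE 0.69, adjusted p = 0.0012) on the log2 scale. The same order of arrays held for Slc36a2 with -4.28 (SE 0.82), Adrb3, the beta-3 adrenergic receptor, with -4.08 (SE 0.70), Thrsp with -4.01 (SE 0.70), Gys2, a glycogen synthase, with -4.01 (SE 0.75), and Rbp7 with -3.77 (SE 0.79). It also held for Scd, a fatty acid desaturase, with -3.48 (SE 0.68), Akr1c15 with -3.45 (SE 0.59) and Retn, the fat hormone resistin, with -3.43 (SE 0.89). Without replicate 3 at 6 weeks, the adjusted p of Retn was 0.055, and Retn was not called when only the 6 WKY arrays were fitted. Of the 3 older arrays, 1 was well above background for Slc36a2, Adrb3, Gys2 and Rbp7, and 2 for Akr1c15 and Retn. With dim signals raised to the dimmest spot well above background on their array, the changes of these 6 genes were -3.04, -3.36, -3.31, -2.66, -3.42 and -3.25. With normexp and quantile normalization they were -1.89, -2.09, -2.06, -1.45, -2.19 and -2.15.

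None of these 12 falls was called with the slide block, where Ucp1 had -3.68 (adjusted p = 0.55), Cidea -1.44 (adjusted p = 0.61), Cox8b -1.96 (adjusted p = 0.52) and Cfd -2.15 (adjusted p = 0.51), and the 12 lay between -3.68 and -1.27.

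Of the adipose tissue list of 16 genes, 15 were matched to a probe and 12 were tested. Of these 12, 10 fell, and 0 rose by limma's test at either the adjusted or the unadjusted p under 0.05. The median change was -1.84, against 0.044 over all genes. For this list the median was -1.18 with normexp and quantile normalization. Adipoq, the fat hormone adiponectin, read 0.28, -1.04 and -0.65 at 3 weeks and -2.06, -1.31 and -1.99 at 6 weeks. Its ages did not overlap, and it fell by 1.32 (SE 0.39, adjusted p = 0.020) on the log2 scale. Without 3-week replicate 1, 6-week replicate 1 or 6-week replicate 3 it was not called, with an adjusted p of 0.089, 0.067 and 0.069. Without 3-week replicate 1, 1 gene of the list rose. Of the 3 not tested, Plin1, which coats the fat droplet, and Lep, the fat hormone leptin, were well above background on no WKY array, and Elovl3 on 1. Summed over the 12 genes, the normalized signal on a linear scale was 22.8, 11.8 and 14.7 at 3 weeks and 4.86, 7.52 and 4.51 at 6 weeks. Pck1, the most abundant of them and also an enzyme of the proximal tubule, had a change of 0.054 (SE 0.15, adjusted p = 0.80). Without Pck1 the sums were 20.2, 9.81 and 11.5 at 3 weeks and 2.03, 4.88 and 2.14 at 6 weeks, with Dgat2 the most abundant. With the slide block the median was -0.48, and limma called 0 of the 12, with 0 at an unadjusted p under 0.05 as well. The block rests on SHR replicate 1 and SHRSP replicate 3 at 3 weeks, whose sums without Pck1 were 14.5 and 5.39. The other arrays of that age had 11.1 and 6.72 in SHR and 8.59 and 13.5 in SHRSP. The part of fat signal on these arrays in the block's values was not tested. With scan day as a block limma called 0, and 1 had an unadjusted p under 0.05. Of the 34 probes lower beyond 4-fold, 7 belonged to this list, and the part of adipose tissue in the result was not tested. Without the genes of the list, an alternative chosen after seeing the data, 119 probes changed beyond 4-fold, 92 higher and 27 lower.

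**Figure D2:**
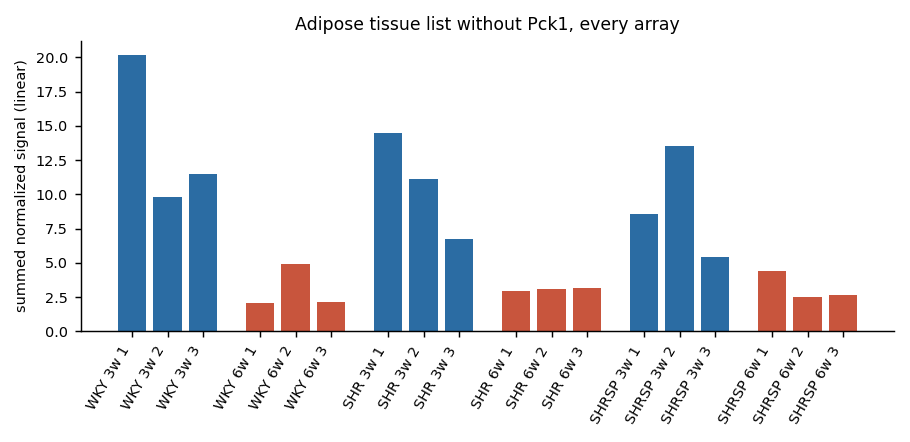
Summed normalized signal (vertical axis, linear scale) of the adipose tissue list without Pck1 on each of the 18 arrays, blue for 3 weeks and red for 6 weeks. The 3 younger WKY arrays lie between 9.81 and 20.2 and the 3 older ones between 2.03 and 4.88.

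Of the DNA replication list, the enzymes and loading factors of S phase, 19 of 36 genes tested fell and 4 rose, with a median of -0.43 (-0.59 with the slide block, where limma called 0, with 2 higher and 18 lower at an unadjusted p under 0.05). Mcm5, a subunit of the replicative helicase, read -3.50, -3.74 and -3.82 at 3 weeks and -4.57, -4.69 and -4.92 at 6 weeks. Mcm6, another subunit, read -3.47, -3.80 and -3.85 at 3 weeks and -4.63, -4.78 and -4.68 at 6 weeks. Neither overlapped between the ages, with changes of -1.04 (SE 0.18, adjusted p = 9.9e-04) and -0.99 (SE 0.20, adjusted p = 0.0025). Chaf1b, which places histones on new DNA, fell by 1.06 (SE 0.15) on the log2 scale, and Pola1, a subunit of the priming polymerase, with 1 of 3 younger arrays well above background, rose by 1.18 (SE 0.18). Among DNA replication genes, leaving out 1 array at a time, 2 rose without 3-week replicate 2.

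Of the cell division list, the spindle and mitotic kinase genes, 7 of 43 (16.3%) rose and 1 (2.33%) fell. Over all genes tested 19.3% rose and 14.0% fell, so that both shares of the list were below those of all genes. The median was 0.21 (0.051 with the slide block, where limma called 0, with 2 higher and 2 lower at an unadjusted p under 0.05). With scan day as a block the median was 0.46, and limma called 1 higher and 0 lower. At an unadjusted p under 0.05 these counts were 9 and 0. Ccnb2, a mitotic cyclin, read -3.89, -4.05 and -3.78 at 3 weeks and -3.31, -3.29 and -3.22 at 6 weeks. All older arrays were above the younger ones, with a change of 0.63 (SE 0.15, adjusted p = 0.0070). Melk, a mitotic kinase, changed by 1.37 (SE 0.13), Kif11, a spindle motor, by 0.52 (SE 0.10), and Mybl2, a transcription factor of dividing cells, by -0.76 (SE 0.18). Top2a had 0.25 (SE 0.17, adjusted p = 0.28) by the probe standing for it and 0.65 (SE 0.23, adjusted p = 0.047) by another. Among cell division genes, leaving out 1 array at a time, 4 rose without 3-week replicate 2 and 12 rose without 3-week replicate 3. For these genes the median was 0.071 without 3-week replicate 2 and 0.10 with normexp and quantile normalization.

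Promoters of 300 bases from RefSeq on GRCr8 are shown for Mcm5 and Mcm6, replication genes that fell, and for Ccnb2, a cell division gene that rose, as examples of promoters that hold the motifs. Those of Chaf1b, with the largest fall of the replication genes tested, and Melk, with the largest rise of the cell division genes tested, held none of them. Capitals mark the motifs found on either strand: CCAAT, the NF-Y box, in all 3, E2F sites in Mcm5 and Mcm6, and TTTGAA, the cell cycle homology region, in Ccnb2. The E2F sites searched were TTTGGCGC, TTTCGCGC, TTTCCCGC, TTCCCGCC and TTGGCGC. The last of these lies within the first, and in Mcm5 the run TTTCGCGCCAAA joins TTTCGCGC to the reverse complement of TTTGGCGC. Mcm5 lies at chr19:13488563-13488862 on the plus strand, Mcm6 at chr13:42404303-42404602 and Ccnb2 at chr8:79981609-79981908, both on the minus strand.
Mcm5: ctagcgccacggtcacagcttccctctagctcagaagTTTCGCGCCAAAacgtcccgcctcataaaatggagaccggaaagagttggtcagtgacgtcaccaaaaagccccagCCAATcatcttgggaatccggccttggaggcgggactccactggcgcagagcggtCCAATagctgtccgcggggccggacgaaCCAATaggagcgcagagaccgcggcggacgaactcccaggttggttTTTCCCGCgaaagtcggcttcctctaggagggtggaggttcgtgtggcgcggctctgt
Mcm6: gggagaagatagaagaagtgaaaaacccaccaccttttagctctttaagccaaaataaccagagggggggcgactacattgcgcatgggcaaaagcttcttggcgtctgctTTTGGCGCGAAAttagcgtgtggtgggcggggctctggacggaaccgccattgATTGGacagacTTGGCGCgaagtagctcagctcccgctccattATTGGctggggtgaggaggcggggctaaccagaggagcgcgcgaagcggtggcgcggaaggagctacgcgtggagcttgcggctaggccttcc
Ccnb2: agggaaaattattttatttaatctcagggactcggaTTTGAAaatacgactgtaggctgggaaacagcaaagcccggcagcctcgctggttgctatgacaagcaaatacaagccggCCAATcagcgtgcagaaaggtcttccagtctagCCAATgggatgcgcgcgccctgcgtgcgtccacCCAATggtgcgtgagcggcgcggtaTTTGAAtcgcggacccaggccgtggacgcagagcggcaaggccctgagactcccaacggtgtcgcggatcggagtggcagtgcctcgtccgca

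Of all 27457 promoters of this length, 37.7% held CCAAT, 18.1% TTTGAA and 5.16% any of the E2F sites. Of 39 promoters of cell division genes, 74.4% held CCAAT, 69.2% TTTGAA and 12.8% an E2F site. Of 34 promoters of DNA replication genes, 55.9% held CCAAT, 5.88% TTTGAA and 58.8% an E2F site. An E2F site was found in 9 of 16 promoters of replication genes that fell, in 2 of 3 of those that rose and in 5 of 10 of those not called.

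Of 16 imprinted growth genes, 11 fell and 1 rose, with a median of -0.40 (-0.47 with the slide block, where limma called 0, with 0 higher and 5 lower at an unadjusted p under 0.05). H19, the imprinted noncoding RNA beside Igf2, read -2.38, -4.23 and -3.18 at 3 weeks and -5.85, -5.39 and -6.08 at 6 weeks. Its groups were apart though widely spread at 3 weeks, and the change was -2.51 (SE 0.38, adjusted p = 3.7e-04), or -1.65 with normexp and quantile normalization. Igf2, a fetal growth factor, read -2.52, -2.60 and -2.69 at 3 weeks and -3.03, -2.95 and -2.98 at 6 weeks. Here the fall was small but without overlap, at -0.38 (SE 0.10, adjusted p = 0.012). Mest changed by -0.96 (SE 0.14), Ndn by -0.96 (SE 0.11) and Cdkn1c, an inhibitor of the cell cycle, by -0.87 (SE 0.11). Among imprinted genes, leaving out 1 array at a time, 2 rose without 6-week replicate 1.

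Of 17 genes of the insulin-like growth factor axis, 6 fell and 1 rose, with a median of -0.25 (-0.48 with the slide block, where limma called 0 higher and 1 lower, with 0 and 5 at an unadjusted p under 0.05). Under the other scalings 1 to 2 rose and 7 to 9 fell. Igfbp6, a binding protein, read -3.20, -3.80 and -3.77 at 3 weeks and -5.42, -5.13 and -5.11 at 6 weeks. The groups were far apart, and it changed by -1.63 (SE 0.25, adjusted p = 4.4e-04). Ghr, the growth hormone receptor, was the 1 gene that rose, with 0.68 (SE 0.19). Igf2bp2, an RNA-binding protein, had -1.002 (SE 0.13) by the probe standing for it and -0.013 by another. For the list the median was -0.16 without 3-week replicate 2. Among genes of this axis, leaving out 1 array at a time, the 1 rise was not called without 3-week replicate 1 or 6-week replicate 3. The adjusted p of Ghr was then 0.069 and 0.061.

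Of 33 genes of nephron progenitors and kidney development, 11 fell and 4 rose, with a median of -0.21 (-0.34 with the slide block, where limma called 0, with 1 higher and 9 lower at an unadjusted p under 0.05). Cited1, a marker of the progenitor cap, read -1.45, -1.42 and -1.38 at 3 weeks and -2.13, -2.002 and -2.04 at 6 weeks. Its older arrays lay below the younger ones, with a change of -0.64 (SE 0.082, adjusted p = 1.0e-04). Wnt4, which drives progenitors to form epithelium, changed by -1.08 (SE 0.19), and Wnt7b, a signal of the ureteric bud with 1 of 3 older arrays well above background, by -1.24 (SE 0.30). Crym, a thyroid hormone binding protein, rose by 0.46 (SE 0.069). Among progenitor and development genes, leaving out 1 array at a time, 6 fell without 6-week replicate 3 and 7 fell without 3-week replicate 1 or 3-week replicate 2 or 6-week replicate 1.

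Of 46 genes of fibrillar collagen and interstitial matrix, 23 fell and 1 rose, with a median of -0.41 (-0.37 with the slide block, where limma called 0, with 0 higher and 13 lower at an unadjusted p under 0.05). Col1a1, a chain of the main fibrillar collagen, read 1.85, 1.84 and 1.71 at 3 weeks and 0.62, 0.87 and 0.71 at 6 weeks. The ages did not overlap, with a change of -1.07 (SE 0.14, adjusted p = 1.4e-04). Col3a1 changed by -0.48 (SE 0.12), Fbn2, a microfibril protein, by -1.11 (SE 0.15) and Sparc, a collagen-binding glycoprotein, by -0.68 (SE 0.13). With scan day as a block limma called 0 of these and 0 of the imprinted genes, with 0 and 1 higher and 11 and 6 lower at an unadjusted p under 0.05. Among fibrillar matrix genes, leaving out 1 array at a time, the 1 rise was not called without 3-week replicate 2 or 6-week replicate 3 and 2 rose without 3-week replicate 3.

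Of 16 basement membrane genes, 9 fell and 1 rose, with a median of -0.38 (-0.32 with the slide block, where limma called 0 higher and 1 lower, with 0 and 4 at an unadjusted p under 0.05). Col4a2, a chain of the network-forming collagen, read -2.45, -2.33 and -2.54 at 3 weeks and -3.14, -3.24 and -3.27 at 6 weeks. All older arrays lay below the younger ones, with a change of -0.78 (SE 0.11, adjusted p = 2.4e-04), and it was also called with the slide block, at -1.11 (adjusted p = 0.035). Lamb3 changed by -1.58 (SE 0.28) and Lamb2, a laminin chain of the glomerular filter, by -0.60 (SE 0.14). Among basement membrane genes, leaving out 1 array at a time, the 1 rise was not called without 3-week replicate 1 or 3-week replicate 2 or 6-week replicate 1 or 6-week replicate 3.

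**Figure D3:**
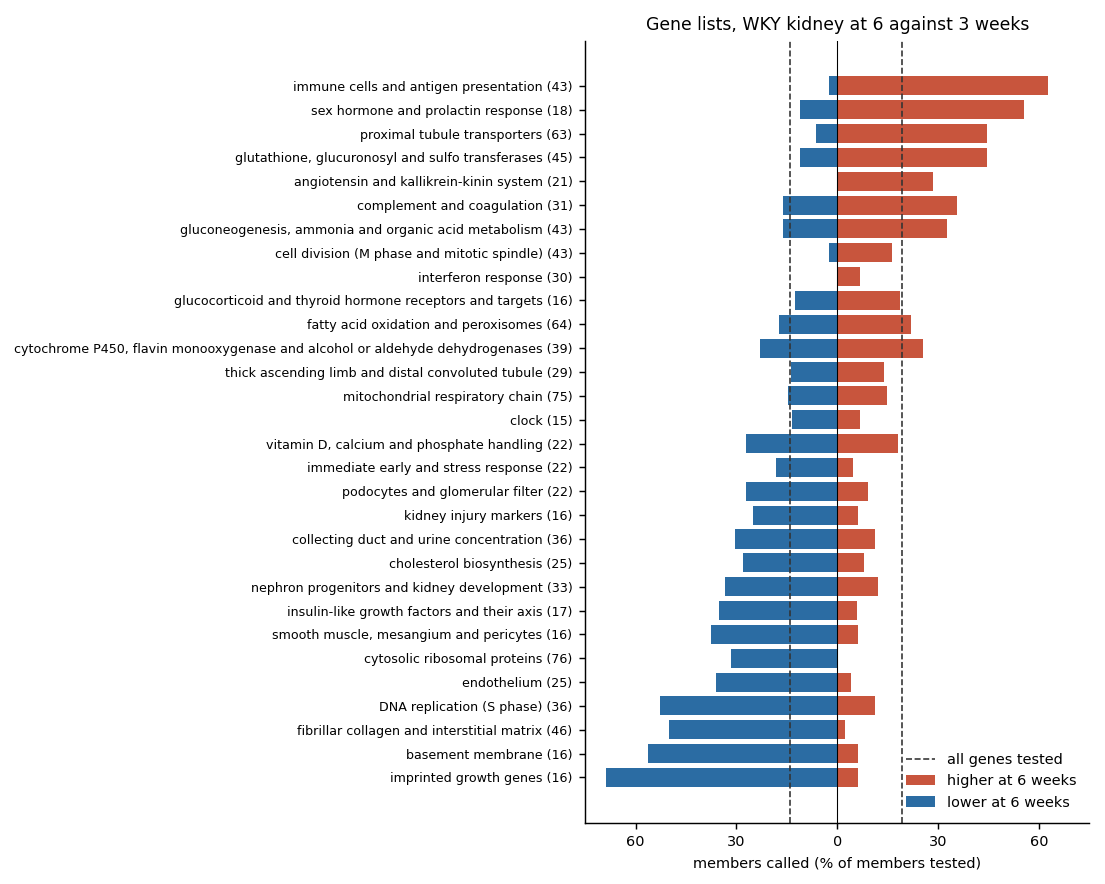
Percent of the members tested (number in brackets) that were called higher (red, to the right) or lower (blue, to the left) in WKY at 6 against 3 weeks, for 30 gene lists. Dashed lines mark the shares over all genes tested, 19.3% higher and 14.0% lower.

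Of 63 proximal tubule transporters, 28 rose and 4 fell, with a median of 0.18 (0.12 with the slide block, where limma called 2 higher and 0 lower, with 12 and 4 at an unadjusted p under 0.05). Slc22a2, a transporter of organic cations on the basolateral side, read 1.30, 1.59 and 1.67 at 3 weeks and 3.14, 3.07 and 3.41 at 6 weeks. The groups were far apart, with a rise of 1.69 (SE 0.15, adjusted p = 4.0e-06), and with the slide block it was 1.74 (adjusted p = 0.025). Slc3a1, part of the cystine carrier, rose by 0.39 (SE 0.066), Slco4c1 by 1.13 (SE 0.19), and Slc22a13 changed by -1.17 (SE 0.21). Slc34a1, the sodium phosphate carrier, had 0.0073 (SE 0.085, adjusted p = 0.96), Slc22a6, an organic anion carrier, 0.10 (SE 0.080, adjusted p = 0.36), and its relative Slc22a8 fell by 0.32 (SE 0.068, adjusted p = 0.0035) on the log2 scale. Among proximal tubule transporters, leaving out 1 array at a time, 2 fell without 3-week replicate 3 or 6-week replicate 2 or 6-week replicate 3. GTTAATNAT, the first part of the HNF1 site, was in 0.75% of all promoters and in 0 of 55 of this list.

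Of 45 glutathione, glucuronosyl and sulfo transferases and related genes, 20 rose and 5 fell, with a median of 0.27 (0.29 with the slide block, where limma called 5 higher and 0 lower, with 11 and 3 at an unadjusted p under 0.05). Ugt2b35, a glucuronosyltransferase, read 0.35, 0.32 and 0.47 at 3 weeks and 2.75, 2.85 and 2.66 at 6 weeks. Its groups were tight and apart, with a rise of 2.37 (SE 0.19, adjusted p = 1.2e-06). Under the other scalings 20 to 24 rose and 7 to 8 fell. Gclc, which makes the precursor of glutathione, rose by 0.52 (SE 0.085). Ugt2b37 had 2.45 (SE 0.16) by the probe standing for it and -0.14 by another. For these transferases the median was 0.16 without 3-week replicate 2.

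Of 39 cytochrome P450, flavin monooxygenase and alcohol or aldehyde dehydrogenase genes, 10 rose and 9 fell, and the median of 0.0092 was below 0 under the 5 other scalings and with the slide block, where 2 rose and 2 fell. Adh6, an alcohol dehydrogenase, read -2.99, -3.51 and -3.08 at 3 weeks and -6.61, -6.17 and -6.49 at 6 weeks. All older arrays stood far below the younger ones, with a change of -3.23 (SE 0.19, adjusted p = 7.0e-08), and with the slide block it was -3.55 (adjusted p = 0.0075). For these enzymes the median lay between -0.020 (without 3-week replicate 2) and 0.050 (without 6-week replicate 2) with 1 array left out, and between -0.059 and -0.020 under the other scalings. Among these enzymes, leaving out 1 array at a time, 5 fell without 3-week replicate 3 or 6-week replicate 2.

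Of 18 genes known to respond to sex hormones and prolactin, 10 rose and 2 fell, with a median of 0.50 (0.56 with the slide block, where limma called 4 higher and 1 lower, and 0.44 with genes dim at 1 age set at their bound). Cyp4a2, Slco1a1, Cyp2c11 and Slc22a2 were members. Kap, an androgen-regulated protein of the mouse proximal tubule, read 7.18, 7.12 and 7.28 at 3 weeks and 6.88, 6.99 and 6.93 at 6 weeks. Its ages did not overlap, but the difference of -0.26 (SE 0.10, adjusted p = 0.060) was not called. For hormone response the median was 0.30 with normexp and quantile normalization. Hao2, a peroxisomal hydroxyacid oxidase, rose by 0.32 (SE 0.073).

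Of 64 fatty acid oxidation and peroxisome genes, 14 rose and 11 fell, and the median of 0.022 was below 0 under the 5 other scalings, where 12 to 17 rose and 16 to 18 fell. With the slide block 1 fell and limma called 0 higher, with 10 higher at an unadjusted p under 0.05. Acsm1, an acyl-CoA synthetase, read 0.79, 0.72 and 0.88 at 3 weeks and -0.19, -0.14 and -0.40 at 6 weeks. The older arrays lay below the younger ones, with a change of -1.04 (SE 0.080, adjusted p = 8.6e-07), and it was called with the slide block, at -1.18 (adjusted p = 0.019). Cpt1b, which carries fatty acids into mitochondria, changed by -1.13 (SE 0.16). For this list the median lay between -0.024 (without 3-week replicate 2) and 0.084 (without 3-week replicate 3) with 1 array left out, and between -0.047 and -0.0074 under the other scalings. Among fatty acid and peroxisome genes, leaving out 1 array at a time, 7 fell without 3-week replicate 1 or 6-week replicate 2 or 6-week replicate 3.

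Of 75 respiratory chain genes, 11 rose and 11 fell, with a median of 0.048, and under the other scalings 5 to 26 rose and 10 to 17 fell. For the respiratory chain the median lay between -0.0075 (without 3-week replicate 2) and 0.087 (without 3-week replicate 1) with 1 array left out, and between -0.0077 and 0.080 under the other scalings. The slide block left 0 called by limma, with 2 higher and 2 lower at an unadjusted p under 0.05. Cycs, the electron carrier cytochrome c, rose by 0.41 (SE 0.076), and Cox6a1 changed by -0.23 (SE 0.066). Without 3-week replicate 1 or 3 or 6-week replicate 1 or 3, Cox6a1 was not called, with an adjusted p of 0.059, 0.061, 0.055 and 0.075. Among respiratory chain genes, leaving out 1 array at a time, 4 rose without 3-week replicate 2, 5 rose without 6-week replicate 3, 6 rose without 6-week replicate 2, 5 fell without 3-week replicate 1 or 6-week replicate 3, 6 fell without 6-week replicate 1 and 7 fell without 6-week replicate 2. Of 43 genes of gluconeogenesis, ammonia and organic acid metabolism, 14 rose and 7 fell, with a median of -0.015. For metabolic genes the median lay between -0.043 (without 3-week replicate 2) and 0.028 (without 3-week replicate 3) with 1 array left out, and between -0.071 and 0.0096 under the other scalings. Among these, too, limma called 0 with the slide block, with 3 higher and 9 lower at an unadjusted p under 0.05. Cndp1, a dipeptidase, read -2.82, -2.91 and -2.71 at 3 weeks and -0.60, -1.62 and -0.72 at 6 weeks. All older arrays stood above the younger ones, with a change of 1.83 (SE 0.20, adjusted p = 3.0e-05). Fbp1, a gluconeogenic phosphatase, had -0.034 (SE 0.069), not called.

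Of 36 genes of the collecting duct and urine concentration, 11 fell and 4 rose, with a median of -0.16 (-0.033 with the slide block, where limma called 0, with 1 higher and 7 lower at an unadjusted p under 0.05). Aqp2, the vasopressin-regulated water channel, read 5.67, 5.73 and 5.72 at 3 weeks and 4.95, 4.68 and 4.79 at 6 weeks. The ages were clearly apart, with a change of -0.90 (SE 0.14, adjusted p = 5.1e-04), and with the slide block it was -0.22 (adjusted p = 0.70). Aqp3, the water channel of the opposite membrane, changed by -0.73 (SE 0.088), and Slc14a2, a urea transporter, by -1.21 (SE 0.20). With scan day as a block limma called 0 of the list, with 3 higher and 2 lower at an unadjusted p under 0.05. Among collecting duct genes, leaving out 1 array at a time, 7 fell without 3-week replicate 1 or 6-week replicate 2 or 6-week replicate 3.

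Of 29 genes of the thick ascending limb and distal convoluted tubule, 4 rose and 4 fell, while under the other scalings 3 to 5 rose and 5 to 9 fell. With the slide block limma called 0, with 0 higher and 3 lower at an unadjusted p under 0.05. Without a block the median was -0.011. For both segments the median lay between -0.029 (without 3-week replicate 1) and 0.055 (without 3-week replicate 3) with 1 array left out, and between -0.067 and -0.023 under the other scalings. Kcnj1, a potassium channel of the limb, read 2.05, 2.45 and 2.49 at 3 weeks and 2.85, 2.83 and 2.997 at 6 weeks. The older arrays stood above the younger ones, with a rise of 0.56 (SE 0.15, adjusted p = 0.010). Egf, which this segment makes in quantity, had 0.028 (SE 0.081), not called. Among genes of these segments, leaving out 1 array at a time, 2 rose without 3-week replicate 1, 1 fell without 6-week replicate 3 and 2 fell without 3-week replicate 1 or 3-week replicate 2 or 3-week replicate 3.

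Of 21 genes of the angiotensin and kallikrein-kinin system, 6 rose and limma called 0 lower, with 2 lower at an unadjusted p under 0.05, while under the other scalings 5 to 6 rose and 0 to 2 fell. The median was 0.23 (0.21 with the slide block, where limma called 1 higher and 0 lower, with 4 and 1 at an unadjusted p under 0.05). Agt, the precursor of the angiotensins, read -0.67, -1.14 and -1.17 at 3 weeks and 0.26, -0.32 and 0.074 at 6 weeks. The older arrays lay above the younger ones, with a rise of 0.99 (SE 0.19, adjusted p = 0.0016), and 1.09 (adjusted p = 0.25) with the slide block. Prep, a peptidase that can cleave angiotensins, read 0.80, 0.75 and 0.83 at 3 weeks and 3.16, 2.71 and 3.05 at 6 weeks. Its groups were far apart, with a rise of 2.18 (SE 0.10, adjusted p = 5.5e-09) that was called with the slide block, at 2.005 (adjusted p = 0.0038). Ace, the converting enzyme, had 0.023 (SE 0.13), not called. For the list the median was 0.13 without 3-week replicate 2, 0.14 without 6-week replicate 3 and 0.10 with normexp and quantile normalization. Among genes of this system, leaving out 1 array at a time, 3 rose without 3-week replicate 2 or 6-week replicate 2 or 6-week replicate 3.

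Of 22 genes of vitamin D, calcium and phosphate handling, 4 rose and 6 fell, with a median of -0.12 (-0.13 with the slide block, where limma called 0, with 3 higher and 4 lower at an unadjusted p under 0.05). Cyp24a1, which degrades active vitamin D, read -3.24, -3.32 and -2.90 at 3 weeks and -4.65, -4.97 and -4.48 at 6 weeks. Its older arrays lay far below the younger ones, with a change of -1.55 (SE 0.23, adjusted p = 3.1e-04). Cyp27b1, which makes active vitamin D, read -3.62, -3.95 and -3.44 at 3 weeks and -4.04, -3.99 and -4.15 at 6 weeks. Its ages did not overlap, but the difference of -0.39 (SE 0.16, adjusted p = 0.067) was not called. Kl, the co-receptor for a phosphate hormone, fell by 0.34 (SE 0.12, adjusted p = 0.043) on the log2 scale, and Lrp2, the receptor that takes up filtered vitamin D carrier, rose by 0.56 (SE 0.12). Kl was called in 1 of the 6 fits that left out 1 array, that without 3-week replicate 1, and had an adjusted p of 0.086 to 0.16 in the others. Nor was Kl called when only the 6 WKY arrays were fitted. Cyp27b1 was called without 3-week replicate 2 (adjusted p = 0.030). For the list the median was -0.19 with quantile normalization. Among genes of this list, leaving out 1 array at a time, 3 fell without 6-week replicate 2 or 6-week replicate 3.

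Of 43 genes of immune cells and antigen presentation, 27 rose and 1 fell, with a median of 0.53 (0.51 with the slide block, where limma called 2 higher and 0 lower, with 13 and 3 at an unadjusted p under 0.05). Fcgr3a, an antibody receptor of macrophages and natural killer cells, read -5.37, -5.41 and -5.55 at 3 weeks and -3.51, -3.26 and -3.15 at 6 weeks. The groups were far apart, with a rise of 2.14 (SE 0.24, adjusted p = 3.8e-05), and with the slide block it was 2.15 (adjusted p = 0.036). Ptprc, the common antigen of leukocytes, read -3.55, -3.79 and -3.51 at 3 weeks and -2.68, -2.52 and -2.48 at 6 weeks. All older arrays stood above the younger ones, with a rise of 1.06 (SE 0.093, adjusted p = 3.5e-06). Cd3g, of the T cell receptor complex, rose by 1.59 (SE 0.23), Lyz2, the lysozyme of macrophages, by 0.90 (SE 0.13) and B2m, the light chain of class I molecules, by 0.78 (SE 0.088). With scan day as a block 12 were called higher, and under the other scalings 26 to 27 rose and 2 to 3 fell. Among immune genes, leaving out 1 array at a time, the 1 fall was not called without 3-week replicate 1 or 3-week replicate 2 or 6-week replicate 1 or 6-week replicate 2 or 6-week replicate 3 and 2 fell without 3-week replicate 3. For these genes the median was 0.31 with normexp and quantile normalization.

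Of 31 complement and coagulation genes, 11 rose and 5 fell, with a median of 0.17 (-0.037 with the slide block, where limma called 0, with 0 higher and 4 lower at an unadjusted p under 0.05). For complement and coagulation the median was 0.11 without 6-week replicate 3, 0.079 with quantile normalization and 0.064 with normexp and quantile normalization. C3, the central complement protein, read -3.93, -3.59 and -3.60 at 3 weeks and -2.34, -2.34 and -2.13 at 6 weeks. Its older arrays stood above the younger ones, with a rise of 1.44 (SE 0.17, adjusted p = 5.6e-05). F2, prothrombin, rose by 1.35 (SE 0.17). The largest fall of this list was that of Cfd, at -3.85, given above with the fat genes, where 6-week replicate 2 lay nearest the younger arrays. Of 30 interferon response genes, 2 rose and limma called 0 lower, with 0 lower at an unadjusted p under 0.05, while under the other scalings 2 to 5 rose and 0 fell, and the median was 0.19 (0.51 with the slide block, where limma called 0, with 6 higher and 0 lower at an unadjusted p under 0.05). For interferon genes the median was 0.063 without 3-week replicate 1, 0.089 with quantile normalization and 0.068 with normexp and quantile normalization.

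Of 76 cytosolic ribosomal protein genes, 24 fell and limma called 0 higher, with 0 higher at an unadjusted p under 0.05. The median was -0.15 (-0.074 with the slide block, where limma called 0, with 0 higher and 5 lower at an unadjusted p under 0.05), and under the other scalings 20 to 41 fell and 0 to 3 rose. Rplp0, of the ribosome's stalk, read 6.71, 6.57 and 6.63 at 3 weeks and 6.15, 6.23 and 6.18 at 6 weeks. The older arrays lay below the younger ones, with a change of -0.45 (SE 0.073, adjusted p = 6.6e-04). Among ribosomal protein genes, leaving out 1 array at a time, 9 fell without 3-week replicate 1 or 6-week replicate 1, 12 fell without 6-week replicate 3 and 14 fell without 3-week replicate 3. For these genes the median was -0.094 with quantile normalization and -0.079 with normexp and quantile normalization.

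**Figure D4:**
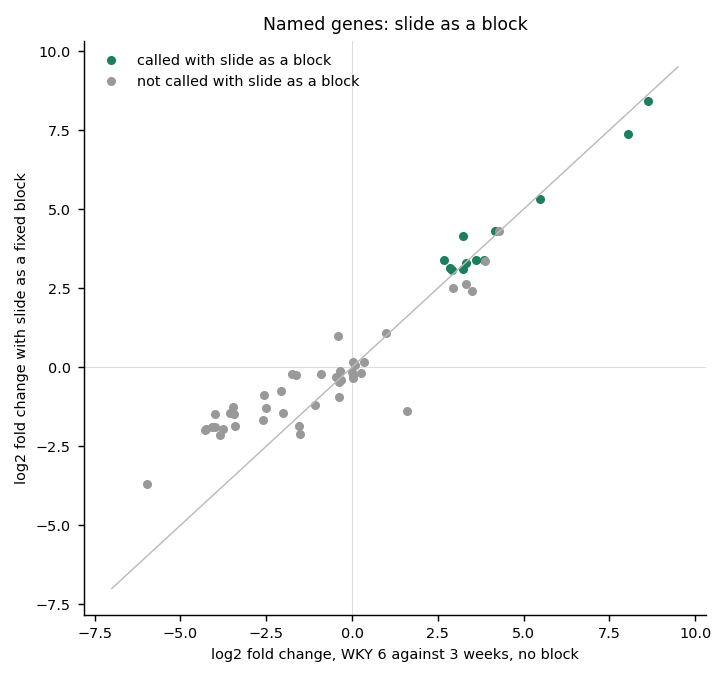
Log2 fold change of the named genes in WKY at 6 against 3 weeks without a block (horizontal axis) and with slide as a fixed block (vertical axis), green where called with the block, with the line of equal values. Of the 12 rises in the plot of named values Cyp2c11 lies furthest below the line, and the 12 falls lie above it, between -3.68 and -1.27 with the block.

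The change in WKY was then set against that in the hypertensive strains, as the mean change of SHR and SHRSP minus the change of WKY. Of 20749 probes tested, 509 (2.45%) were higher and 3196 (15.4%) lower on this difference. The split depended on the scaling: under the 5 others it was 1489 higher and 2557 lower, 1582 and 2650, 2398 and 2282, 2573 and 2430, and 3460 and 3295. The median difference was -0.10 here and -0.00062, -0.0091, 0.045, 0.046 and 0.020 under the same scalings. The 3705 probes called were 2398 without replicate 2 of WKY at 3 weeks, 2450 without replicate 2 and 2427 without replicate 3 of WKY at 6 weeks, and 2294 with scan day as a block. No slide held 6-week arrays of WKY together with 6-week arrays of SHR or SHRSP. Strain and slide therefore cannot be told apart at 6 weeks in this difference.

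The mean of SHR and SHRSP is the same whichever of these labels an array of an age carries. In the study's own lists, several genes differ between SHRSP and SHR in opposite directions at 3 and 6 weeks. Whether the labels were exchanged at an age was not tested, and values of SHR or SHRSP alone rest on them. For Cyp4a2, SHR read 0.75, 0.86 and 0.97 at 3 weeks and 5.94, 5.86 and 5.87 at 6 weeks, and SHRSP 1.17, 1.29 and 1.28 and 5.89, 5.88 and 5.76. At 3 weeks all hypertensive kidneys were above all WKY kidneys, while at 6 weeks the strains overlapped, and the difference in change was -3.82 (SE 0.26, adjusted p = 3.4e-06). Slco1a1 read -1.36, -1.28 and -1.56 at 3 weeks and 1.06, 0.97 and 1.06 at 6 weeks in SHR, and -0.69, -0.77 and -0.49 and 1.17, 1.18 and 1.099 in SHRSP. For this gene, too, the strains were apart at 3 weeks and overlapped at 6 weeks, with a difference of -3.36 (SE 0.16, adjusted p = 1.5e-07). Cyp2c11 differed the other way, with a change of 7.31 in SHR and 5.30 in SHRSP against 3.50 in WKY, a difference of 2.80 (SE 0.55, adjusted p = 0.0038). Agt had 3.97 in SHR and 0.51 in SHRSP, the first above and the other below the 0.99 of WKY, and their mean gave a difference of 1.25 (SE 0.23, adjusted p = 0.0026). Gc had 3.76 and 3.97 against 3.88 in WKY, and the difference of -0.016 (SE 0.40) was not called. Under the 5 other scalings the difference of Gc was above 0 and not called. It was largest with normexp and quantile normalization, at 0.90 (adjusted p = 0.0501).

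**Figure D5:**
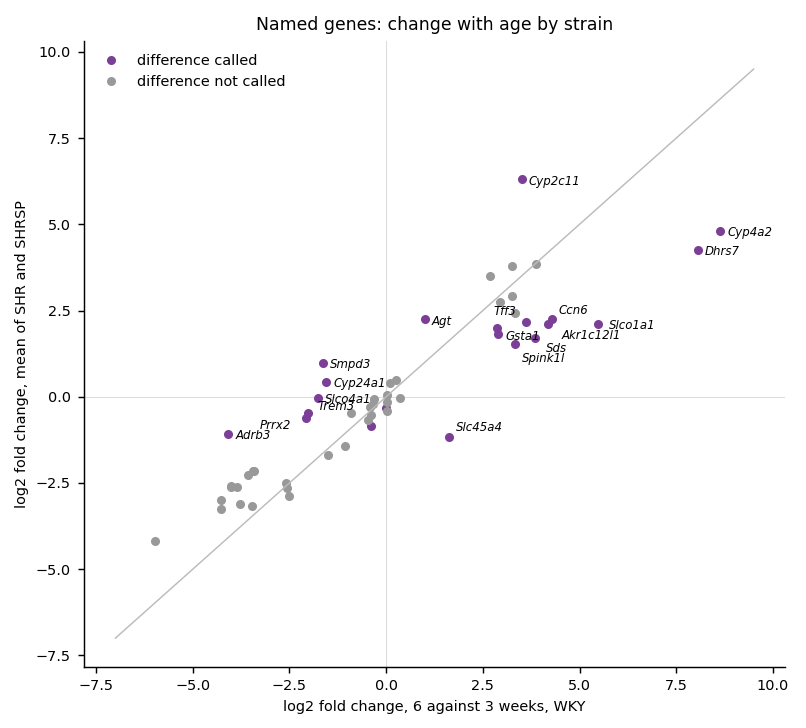
Log2 fold change from 3 to 6 weeks of the named genes in WKY (horizontal axis) and as the mean of SHR and SHRSP (vertical axis), purple where the difference was called, with the line of equal change. Cyp4a2, Dhrs7 (by the probe standing for the gene) and Slco1a1 lie far below the line and Cyp2c11 above it.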

How the data were processed

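Total kidney RNA of 18 animals was read on Agilent rat arrays. The deposited values are spot intensity values that, per the file headers, came from Agilent Feature Extraction 10.5.1.1 with its background correction. The 796572 values of the deposited series matrix were the same as the processed signals within a relative tolerance of 1e-06. Spots marked as outliers were left out, copies of a probe were averaged as log2, and each array was scaled to the 75th percentile of its spots well above background. The fit was limma 3.58.1 in R 4.3.3 over 18 arrays in 6 groups, with Benjamini-Hochberg adjustment over the 20399 probes well above background on all 3 arrays of a WKY group. On data simulated beforehand without effects of slide or scan day, it called 89.6% of log2 changes of 1, with 8 false calls. Log2 changes below 1 were not simulated. Summaries used Python 3.11.15, numpy 2.4.6, pandas 2.3.3 and matplotlib 3.10.9.

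Genes were named by rule: the 12 largest rises and falls without overlap between ages, the 5 largest bounds in each direction, up to 4 called and 2 brightest members of a list, a set of kidney genes and markers, and the 5 largest strain differences in each direction. Some genes picked by this rule are not given here. The members and lists were chosen with earlier results of these data known. Alternatives tried were other scalings, filters and background correction, blocks, array weights, array omission and 1 probe a gene. Promoter sequences came from RefSeq, and probe names matched 20693 of 30367 probes to 1 gene symbol. Each age had 3 WKY arrays. Age, slide and scan day cannot be told apart within WKY.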

Additional observations from a re-analysis of the deposited data

Results flagged for a closer look

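For the genes given below the change from 3 to 6 weeks differed between the hypertensive strains and WKY by limma's test of the difference. In this test strain and slide cannot be told apart at 6 weeks. Values are the mean log2 change of SHR and SHRSP minus that of WKY. The mean change was lower than in WKY for Cyp4a2 (-3.82), Dhrs7 (-3.80), Slco1a1 (-3.36), Slc45a4 (-2.77), Sds (-2.14), Akr1c12l1 (-2.07), Ccn6 (-2.04), Spink1l (-1.79), Tff3 (-1.46), Gsta1 (-1.09) and Rarres1 (-0.87). It was also lower for Igf2 (-0.46) and Slc34a1 (-0.34). It was higher than in WKY for Adrb3 (2.999), Cyp2c11 (2.80), Smpd3 (2.61), Cyp24a1 (1.98), Slco4a1 (1.74), Trem3 (1.54), Prrx2 (1.45) and Agt (1.25). For Agt the mean joins 3.97 in arrays labelled SHR and 0.51 in those labelled SHRSP, which lay on opposite sides of the 0.99 in WKY. Sds at 3 weeks and Smpd3 and Prrx2 at 6 weeks were well above background on no WKY array, so that their values use signals at background and are not exact. The same holds in part for Dhrs7, Ccn6 and Adrb3, where 1 or 2 arrays of an age were at background. The value of Dhrs7 is that of the probe standing for the gene, while its other probe changed by 0.30 in WKY.

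Slc45a4 read -6.08, -6.39 and -6.37 at 3 weeks and -4.39, -4.85 and -4.76 at 6 weeks in WKY. Its ages did not overlap, and it rose by 1.61 (SE 0.44), against -0.54 in SHR and -1.77 in SHRSP. With slide as a fixed block its WKY value was -1.38 (adjusted p = 0.24), in the other direction, and with normexp and quantile normalization it was 0.68. Ccn6, Igf2 and Slc34a1 were not called in at least 1 of the 5 other scalings, and the other genes given here were called in all 5. With normexp and quantile normalization, 1 of these 5, the values were smaller by over 1.5 times for Dhrs7 (-2.06), Slc45a4 (-1.10), Sds (-0.84), Ccn6 (-0.13), Igf2 (-0.03), Slc34a1 (-0.13), Adrb3 (1.65), Smpd3 (1.26) and Prrx2 (0.63). Groups of 3 arrays were not tested for outlying arrays.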

How the results depend on the processing

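The 6565 probes that changed were 192 with slide and 406 with scan day as a fixed block, 724 with a 2-fold limit and 4224 with 1 probe a gene, where fewer probes were tested. Leaving out 1 array gave 4184 to 6110. Deviations of WKY arrays with the same replicate number at both ages correlated at -0.1354 to 0.1112, and those with other numbers at -0.1599 to 0.0872. No pairing by number was seen, but 3 arrays an age cannot exclude one. With the replicate block 6242 changed. With slide as a random block, chosen after seeing the data, 6989 changed.

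The 126 probes beyond 4-fold were 42 with normexp and quantile normalization, 63 when only probes well above background on all 6 WKY arrays were tested, 72 with slide as a fixed block and 724 with a 2-fold limit. The normexp count includes the effect of its offset of 50, which shrinks the changes of dim probes. Leaving out 1 array gave 125 to 149, and the replicate block 127. Without the adipose tissue list, also chosen after seeing the data, they were 119, and 6554 changed in all.

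The 3705 probes that differed between strains were 1904 with SHR alone, 5363 with SHRSP alone and 2294 with scan day as a block. The counts for SHR or SHRSP alone rest on these strain labels, which were not tested. Leaving out 1 of the 6 WKY arrays gave 2398 to 3445, and the replicate block 3500. No SHR or SHRSP array was left out. Slide as a fixed block could not be estimated for this difference, and as a random block it gave 4103.

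Of 58 genes named other than only as list members or markers, 34 lost the call with slide as a fixed block, and Slc45a4 was reversed, at -1.38. With scan day as a block 31 lost it. The replicate block changed no call among the 58. Of these genes, 3 gained the call with quantile normalization and 3 with normexp and quantile normalization. With the median of probes well above background on all 18 arrays 1 gained it. In the fits that left out 1 WKY array, Retn and Kl lost the call in 6 cases and Cyp27b1 gained it in 1, and of the genes named only as list members or markers Adipoq, Ghr, Cox6a1, Dbp, Slc12a1 and Cdh16 lost it in at least 1 fit. Changes of dim genes were smaller with normexp and quantile normalization where that value is given beside them, which is not so for all dim genes. With only the 6 WKY arrays, Ucp1, Retn and Kl lost it. Where a call was lost, the cause was not tested.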

Other observations

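Of 25 endothelial genes, 9 fell and 1 rose, with a median of -0.28 (-0.40 with the slide block, where limma called 0, with 1 higher and 5 lower at an unadjusted p under 0.05). Plvap, of the diaphragm of fenestrated capillaries, read 3.52, 3.61 and 3.39 at 3 weeks and 2.91, 2.78 and 2.73 at 6 weeks. Its ages did not overlap, with a change of -0.70 (SE 0.13, adjusted p = 0.0012). Vwf, the clotting factor stored by endothelium, was the 1 gene that rose, with 1.09 (SE 0.13). Of 16 genes of smooth muscle, mesangium and pericytes, 6 fell and 1 rose, with a median of -0.25 (-0.38 with the slide block, where limma called 0 higher and 1 lower, with 0 and 1 at an unadjusted p under 0.05). Under the other scalings 1 rose and 8 to 10 fell. Pdgfrb, a receptor of pericytes, changed by -0.70 (SE 0.16). Among these genes, leaving out 1 array at a time, the 1 rise was not called without 3-week replicate 2 or 6-week replicate 3. Of 22 podocyte and glomerular filter genes, 6 fell and 2 rose, with a median of -0.10 (-0.35 with the slide block, where limma called 0, with 1 higher and 3 lower at an unadjusted p under 0.05). Wt1, a podocyte transcription factor, had -0.66 (SE 0.12) by the probe standing for it and -0.068 by another. Among podocyte genes, leaving out 1 array at a time, 1 rose without 3-week replicate 1 or 3-week replicate 2 or 6-week replicate 2 or 6-week replicate 3 and 3 fell without 3-week replicate 2 or 6-week replicate 2 or 6-week replicate 3. For this list the median was -0.16 without 3-week replicate 1, -0.061 without 3-week replicate 3 and -0.16 with the median of probes well above background on all 18 arrays.

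Of 25 genes of cholesterol biosynthesis and uptake, 7 fell and 2 rose, with a median of -0.14 (-0.030 with the slide block, where limma called 0, with 1 higher and 2 lower at an unadjusted p under 0.05). With the other scalings 1 to 2 rose and 9 fell. For these genes the median was -0.29 without 6-week replicate 1, -0.081 without 6-week replicate 3 and -0.21 with normexp and quantile normalization. Among cholesterol genes, leaving out 1 array at a time, 1 rose without 3-week replicate 2 or 3-week replicate 3 or 6-week replicate 1 or 6-week replicate 2 and 4 fell without 3-week replicate 1 or 6-week replicate 2. Of 22 immediate early and stress genes, 4 fell and 1 rose, with a median of -0.14 (-0.54 with the slide block, where limma called 0, with 0 higher and 7 lower at an unadjusted p under 0.05). Under the other scalings 1 rose and 6 to 7 fell. Hspb1, a small heat shock protein, changed by -1.09 (SE 0.16), Jun had 0.36 (SE 0.22), not called, or 0.18 with normexp and quantile normalization, and Fos was well above background on no WKY array. Among immediate early genes, leaving out 1 array at a time, the 1 rise was not called without 3-week replicate 1 or 3-week replicate 2 or 6-week replicate 2 or 6-week replicate 3 and 2 rose without 3-week replicate 3. Of 15 clock genes, 2 fell and 1 rose, and the median of 0.10 was below 0 under at least 1 other scaling and with the slide block, where limma called 0, with 2 higher and 3 lower at an unadjusted p under 0.05. With the other scalings 1 to 2 rose and 2 to 3 fell. Dbp, a clock output factor, changed by -0.56 (SE 0.15), and without 6-week replicate 1 its adjusted p was 0.054. Among clock genes, leaving out 1 array at a time, the 1 rise was not called without 3-week replicate 2 and 2 rose without 3-week replicate 3 or 6-week replicate 3. For the clock the median lay between -0.024 (without 6-week replicate 3) and 0.11 (without 3-week replicate 3) with 1 array left out, and between -0.020 and 0.071 under the other scalings. Of 16 genes of glucocorticoid and thyroid hormone response, 3 rose and 2 fell, and the median of 0.11 was below 0 under at least 1 other scaling and with the slide block, where limma called 0, with 3 higher and 3 lower at an unadjusted p under 0.05. With the other scalings 3 rose and 3 to 4 fell. For hormone response the median lay between 0.066 (without 3-week replicate 2) and 0.16 (without 6-week replicate 2) with 1 array left out, and between -0.0041 and 0.079 under the other scalings. Hsd11b1, which activates glucocorticoids, rose by 0.71 (SE 0.069). The largest fall of this list was that of Thrsp, at -4.01, given above with the fat genes, where 6-week replicate 2 lay nearest the younger arrays. Of 16 kidney injury markers, 4 fell and 1 rose, with a median of -0.19 (-0.16 with the slide block, where limma called 0, with 4 higher and 3 lower at an unadjusted p under 0.05). With the other scalings 0 to 1 rose and 5 fell. Krt18, a keratin, changed by -0.80 (SE 0.10). Among injury markers, leaving out 1 array at a time, the 1 rise was not called without 3-week replicate 1 or 3-week replicate 2 or 6-week replicate 3.

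Many markers of other tissues were too dim to be tested. Of the adrenal gland list 8 of 18 genes were tested, 2 rising and 1 falling, with a median of 0.20 (0.053 with the slide block, where limma called 0, with 1 higher and 1 lower at an unadjusted p under 0.05). For this gland the median was 0.13 without 6-week replicate 1, 0.33 without 6-week replicate 3, 0.12 with quantile normalization and 0.13 with normexp and quantile normalization. Of the liver list 9 of 18 were tested, 2 rising and 1 falling, and the median of 0.025 was below 0 under the 5 other scalings and with the slide block, where limma called 0, with 0 higher and 2 lower at an unadjusted p under 0.05. With the other scalings 2 rose and 1 to 3 fell. For liver genes the median lay between -0.21 (without 3-week replicate 2) and 0.16 (without 6-week replicate 2) with 1 array left out, and between -0.043 and -0.0047 under the other scalings. Among liver genes, leaving out 1 array at a time, 2 fell without 3-week replicate 1 or 3-week replicate 2. Of the skeletal muscle list 7 of 16 were tested and 3 rose, with a median of 0.998 (0.89 with the slide block, where limma called 0, with 2 higher and 0 lower at an unadjusted p under 0.05) and 0 lower by limma at either the adjusted or the unadjusted p under 0.05. For this list 3 to 5 rose with the other scalings. For muscle the median was 0.61 with normexp and quantile normalization. Of the pancreas and lymph node list 5 of 14 were tested, 1 rising and 2 falling, with a median of 0.079 (-0.075 with the slide block, where limma called 0, with 1 higher and 0 lower at an unadjusted p under 0.05). Without 3-week replicate 1 neither fall was called, and without any other single WKY array 1 was. For these markers the median lay between 0.012 (without 3-week replicate 2) and 0.15 (without 3-week replicate 1) with 1 array left out, and between 0.0093 and 0.050 under the other scalings.

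Of 9 red cell genes tested, 2 fell and limma called 0 higher, with 0 higher at an unadjusted p under 0.05. The median was -0.42 (0.34 with the slide block, where limma called 0, with 0 higher and 0 lower at an unadjusted p under 0.05), and the count that fell was 5 without 3-week replicate 3 and 1 without any other single WKY array. For red cells the median was -0.91 without 3-week replicate 3. Hbb read 1.36, 1.14 and -0.48 at 3 weeks and 0.65, -0.18 and 0.31 at 6 weeks. Replicate 3 at 3 weeks was the lowest of the 6 arrays, the ages overlapped, and the difference was -0.42 (SE 0.47, adjusted p = 0.52). Summed over the list, the signal was 82.5, 75.1 and 35.2 at 3 weeks and 48.1, 32.9 and 40.8 at 6 weeks, with Hbb-b1 the most abundant. The part of blood in other results was not tested.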
